A study of Mus musculus with 12 samples.

Results

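The protocadherin genes on the array were followed as a family across the striata of 12 mice: 22 genes of the beta cluster (Pcdhb1 to Pcdhb22) and 12 non-clustered protocadherins, 34 of the 19248 genes measured. Members were chosen by name. A gene entered when a probe set carried a single symbol starting with Pcdh, and where a gene had several probe sets the brightest over all mice was kept. That choice of brightness touched only Pcdh9 and Pcdh15, which have 2 probe sets each with identical values on every array. The family was picked for description with earlier results of these data known, so its counts are given beside those of all genes and carry no test of their own.

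Mice of a Huntington's disease (HD) model were crossed with mice lacking p62 (gene Sqstm1), an adaptor that carries ubiquitinated cargo to autophagosomes, and the striatum was taken at 8 weeks. The groups were HD transgenic mice with p62 knocked out (HD;p62-/-, called HD_p62KO), HD transgenic mice with normal p62 (HD;p62+/+, HD_p62WT), non-transgenic p62 knockouts (NT;p62-/-, NT_p62KO) and non-transgenic mice with normal p62 (NT;p62+/+, NT_p62WT), with 3 biological replicates in each of the 4 groups. The labels used here do not name the HD transgenic line, its promoter, the p62 allele or the sex of the mice, and each replicate was taken as 1 mouse. The question put by the design was how loss of p62 alters the striatal transcriptome of the HD model.

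Protocadherins are transmembrane adhesion proteins of the cadherin superfamily. The clustered alpha, beta and gamma genes lie in tandem arrays, and each neuron uses a small, largely random set of their promoters, so that the combination on its surface acts as a molecular identity that lets branches of the same cell recognise each other. Each beta gene is a single coding exon with its own promoter, and promoter choice in the clusters depends on CTCF, cohesin, DNA methylation and repressive histone marks. The non-clustered members, the delta-1 and delta-2 subfamilies and a few others, are expressed in regional patterns and act in axon growth, synapse formation and cell sorting.

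Values are log2 expression per probe set after RMA, the authors' normalization, so a difference of 1 is a 2-fold difference. RMA is meant to place all arrays on one scale, but the arrays still differed in spread, as given below. Differences were tested with limma over all 19248 genes, and a gene was called when its Benjamini-Hochberg adjusted p was below 0.05. The knockout read as labelled. Sqstm1 had log2 values of 8.92, 9.13 and 9.02 in HD_p62KO and 11.75, 11.26 and 11.51 in HD_p62WT, and 8.44, 8.52 and 8.49 in NT_p62KO against 11.19, 11.35 and 11.24 in NT_p62WT. Arrays of the same group correlated at 0.987 to 0.995. The standard deviation of an array over genes ran from 1.58 to 1.73, and the third NT_p62KO mouse had the smallest, which matters for several counts below. No detection calls were used, so a low value is not shown to be above background, and levels of different genes, which rest on different probes, are not set against each other.

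The beta cluster was higher in HD striatum, whether or not the mice had p62. Averaged over both p62 genotypes, 18 of the 22 beta genes were called higher in HD than in NT mice and 0 lower, where 35% of all genes were called in that comparison (19.9% higher and 15% lower). The median log2 difference of the beta genes was 0.36, against -0.02 over all genes. In 14 of the 22 beta genes every one of the 6 HD mice lay above every one of the 6 NT mice, a pattern that 10.5% of all genes showed. These differences are moderate in size, from 0.22 to 0.78 on the log2 scale among the genes called.

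Pcdhb9 showed the widest separation in the cluster (probe set 10455080). Its log2 values were 7.11, 7.13 and 7.28 in HD_p62KO, 7.11, 7.18 and 7.23 in HD_p62WT, 6.58, 6.53 and 5.99 in NT_p62KO and 6.61, 6.34 and 6.26 in NT_p62WT. The HD mice fell within a narrow band above all NT mice, and the third NT_p62KO mouse was the lowest. The mean HD effect was 0.78 ± 0.10 (SE, limma adjusted p = 0.000279), a 1.72-fold difference. It was 0.77 ± 0.14 with normal p62 (adjusted p = 0.00978) and 0.80 ± 0.14 without p62 (adjusted p = 0.00443).

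Pcdhb21 had the smallest p in the cluster. It had log2 values of 7.34, 7.49 and 7.33 in HD_p62KO, 7.33, 7.34 and 7.44 in HD_p62WT, 7.06, 6.75 and 6.69 in NT_p62KO and 6.93, 6.74 and 6.71 in NT_p62WT. No HD mouse overlapped an NT mouse, and the mean HD effect was 0.57 ± 0.07 (limma adjusted p = 0.000267). Pcdhb3, near the start of the cluster, had log2 values of 7.05, 7.15 and 7.21 in HD_p62KO, 6.94, 7.19 and 7.19 in HD_p62WT, 6.79, 6.66 and 6.56 in NT_p62KO and 6.71, 6.39 and 6.43 in NT_p62WT. Here too the HD and NT mice were fully separated, with a mean HD effect of 0.53 ± 0.07 (limma adjusted p = 0.000452).

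Pcdhb12 had the tightest HD values of these genes, at 7.04, 7.01 and 7.07 in HD_p62KO and 6.89, 7.01 and 7.04 in HD_p62WT. Its NT values were 6.71, 6.75 and 6.65 in NT_p62KO and 6.63, 6.39 and 6.48 in NT_p62WT, all below the lowest HD mouse, with a mean HD effect of 0.41 ± 0.05 (limma adjusted p = 0.000298). Pcdhb2, the neighbour of Pcdhb3, had log2 values of 6.70, 6.70 and 6.66 in HD_p62KO, 6.54, 6.37 and 6.77 in HD_p62WT, 6.15, 6.20 and 6.15 in NT_p62KO and 6.27, 6.08 and 6.24 in NT_p62WT. The 3 HD_p62WT mice were more spread than any other group, yet still above all NT mice, and the mean HD effect was 0.44 ± 0.07 (limma adjusted p = 0.000706).

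**Figure D1:**
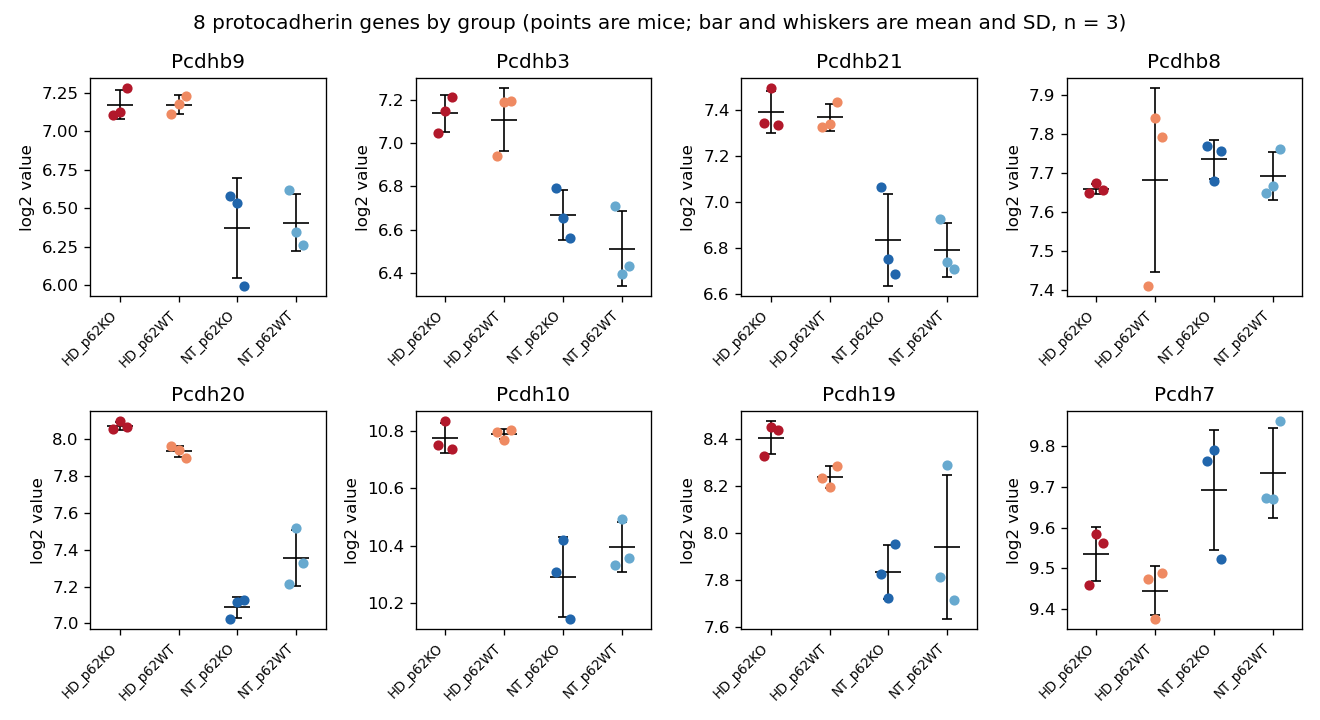
Log2 values of 8 protocadherin genes in each mouse (points) with the group mean and SD (bar and whiskers, n = 3), one panel per gene. In the Pcdhb9, Pcdhb3 and Pcdhb21 panels the HD mice sit above all NT mice, whichever p62 genotype they carry.

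The other 13 beta genes called in the mean HD effect had log2 differences from 0.22 to 0.48. Pcdhb22, the last gene of the cluster, differed by 0.48 ± 0.08 (limma adjusted p = 0.0013). In Pcdhb22 the HD mice ran from 7.43 to 7.71 with a median of 7.60, and the NT mice from 6.87 to 7.31 with a median of 7.16. Pcdhb6, with the smallest difference called, had a mean HD effect of 0.22 ± 0.06 (adjusted p = 0.0114) and still no overlap, since the 6 NT mice lay within 7.65 to 7.74 and the lowest HD mouse was at 7.76. Pcdhb10, Pcdhb14, Pcdhb16, Pcdhb17, Pcdhb19, Pcdhb20 and Pcdhb4 were likewise separated in all mice. Pcdhb16 had a mean of 8.15 in HD mice and 7.78 in NT mice (SD 0.09 and 0.20, n = 6 each). Pcdhb7, Pcdhb13, Pcdhb15 and Pcdhb18 passed the test although their HD and NT ranges overlapped. Pcdhb7 lost its call when any of 7 mice was left out (adjusted p up to 0.0693), and Pcdhb15 without the second HD_p62KO mouse (adjusted p = 0.0512).

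The 4 beta genes that did not pass were Pcdhb1, Pcdhb5, Pcdhb8 and Pcdhb11. Pcdhb8 had log2 values of 7.65, 7.67 and 7.66 in HD_p62KO, 7.41, 7.84 and 7.79 in HD_p62WT, 7.77, 7.68 and 7.76 in NT_p62KO and 7.65, 7.67 and 7.76 in NT_p62WT, with a mean HD effect of -0.04 ± 0.07 (limma adjusted p = 0.64). Pcdhb1, which opens the cluster, had a mean HD effect of -0.08 ± 0.05 (adjusted p = 0.204) and Pcdhb5 one of 0.09 ± 0.08 (adjusted p = 0.39). Both were dim, at brightness percentiles 14.8 and 21 of all genes, as were the called Pcdhb10 (14.4) and Pcdhb2 (19.3). Whether these 4 genes were above background was not tested. Pcdhb11 had a difference as large as many called genes, 0.33 ± 0.14, but its NT mice ranged from 6.29 to 7.14 and it did not pass (adjusted p = 0.0865). Pcdhb5 and Pcdhb8 lie among genes that were called, with Pcdhb4, Pcdhb6, Pcdhb7 and Pcdhb9 as their neighbours. Beta genes are similar in sequence. Probe sequences were not used here, so how far a probe set reads its neighbours' transcripts was not tested.

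**Figure D2:**
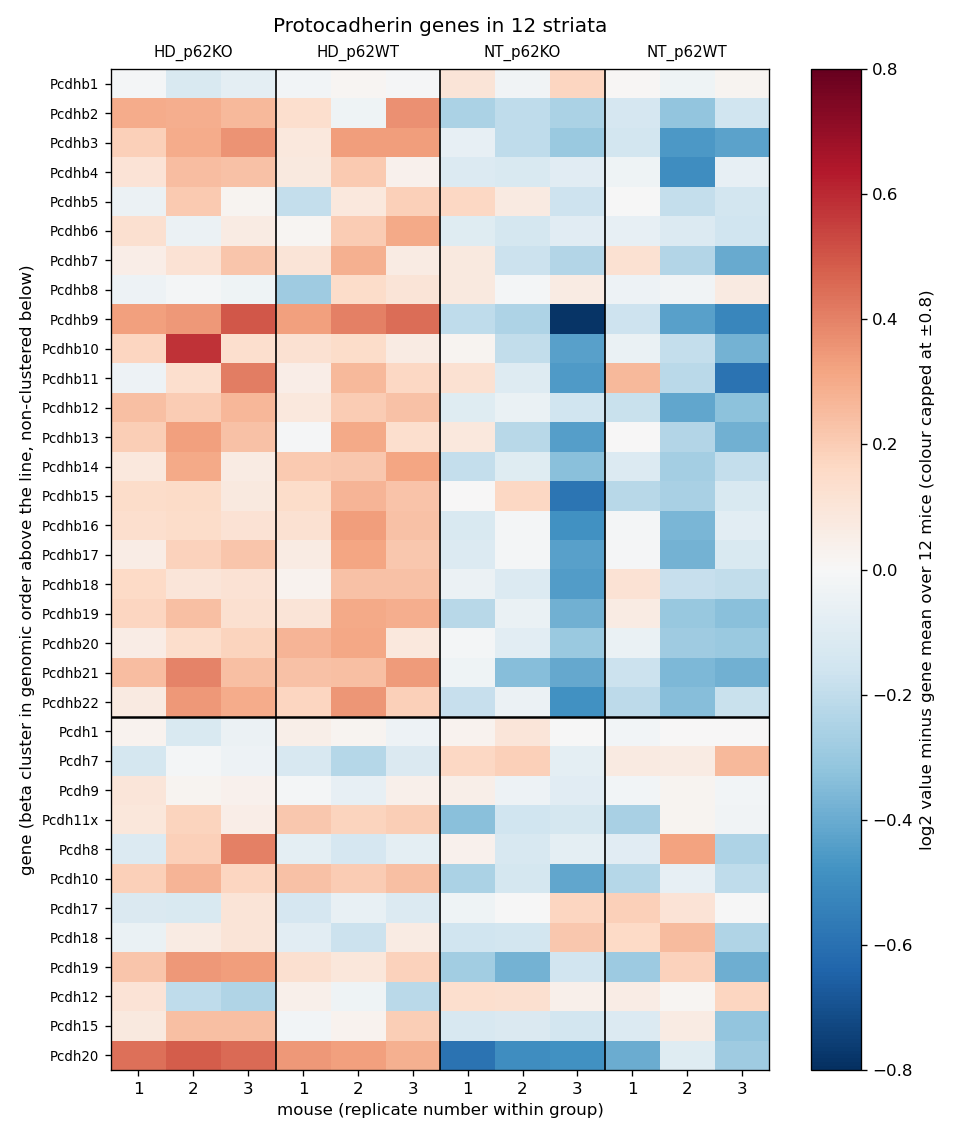
Log2 value minus the gene's mean over the 12 mice, for 34 protocadherin genes (down the page, beta cluster in genomic order, then non-clustered) and 12 mice (across, HD groups left of NT groups), with colour capped at 0.8 either way. Most beta genes are above their mean in the 6 HD mice and below it in the NT mice, with the third NT_p62KO mouse the lowest of 12 in 11 beta genes.

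The non-clustered protocadherins were mixed. Of the 12 genes, 5 were called higher in HD in the mean HD effect (Pcdh20, Pcdh10, Pcdh19, Pcdh11x and Pcdh15) and 1 was called lower (Pcdh7), against 19.9% higher and 15% lower over all genes. The other 6 did not pass, and the median log2 difference of the 12 was 0.05. In 3 of the 12 all HD mice lay above all NT mice, as in 10.5% of all genes. Transcript starts for 9 of the 34 members were in the RefSeq promoter table (GRCm38.p6). The 250 bases before the transcript start in that table, which for Pcdh7 and Pcdh19 lies inside the annotated span of the gene, are shown for 4 non-clustered genes that the results turn on, because methylation of CG pairs is a known layer of protocadherin promoter control. CG pairs are in capitals, and each sequence is on the gene's own strand:
Pcdh20: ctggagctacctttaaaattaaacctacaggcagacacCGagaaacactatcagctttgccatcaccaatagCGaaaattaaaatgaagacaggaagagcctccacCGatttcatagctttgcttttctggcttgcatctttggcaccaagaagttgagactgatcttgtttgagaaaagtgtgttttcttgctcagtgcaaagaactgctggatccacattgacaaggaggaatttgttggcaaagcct
Pcdh10: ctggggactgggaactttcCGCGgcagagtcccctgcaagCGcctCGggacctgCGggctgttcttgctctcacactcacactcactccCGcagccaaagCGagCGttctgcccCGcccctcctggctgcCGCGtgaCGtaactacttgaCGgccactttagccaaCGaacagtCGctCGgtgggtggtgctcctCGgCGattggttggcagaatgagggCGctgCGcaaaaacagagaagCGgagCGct
Pcdh19: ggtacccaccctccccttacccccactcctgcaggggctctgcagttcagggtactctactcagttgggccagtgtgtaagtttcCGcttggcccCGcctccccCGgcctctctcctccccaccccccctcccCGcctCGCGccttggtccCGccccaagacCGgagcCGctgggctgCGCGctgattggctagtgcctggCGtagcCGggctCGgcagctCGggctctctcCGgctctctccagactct
Pcdh7: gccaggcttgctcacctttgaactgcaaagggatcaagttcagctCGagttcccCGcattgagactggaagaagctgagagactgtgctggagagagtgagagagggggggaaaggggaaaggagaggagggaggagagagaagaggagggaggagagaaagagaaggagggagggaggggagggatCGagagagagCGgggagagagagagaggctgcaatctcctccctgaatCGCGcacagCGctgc
The Pcdh20 window (chr14:88471397-88471646, minus strand) holds 3 CG pairs, and 71% of the 32851 windows in the table hold at least as many. The Pcdh10 window (chr3:45378148-45378397, plus strand) holds 22, a number that 14.8% of windows reach. The Pcdh19 window (chrX:133688994-133689243, minus strand) holds 16, reached by 25.4% of windows, and the Pcdh7 window (chr5:57717831-57718080, plus strand) holds 7, reached by 46.3%. The median over all windows is 6. Methylation was not measured.

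Pcdh20 had the largest response among the non-clustered genes (probe set 10421911). Its log2 values were 8.05, 8.10 and 8.07 in HD_p62KO, 7.96, 7.94 and 7.90 in HD_p62WT, 7.02, 7.11 and 7.13 in NT_p62KO and 7.21, 7.52 and 7.33 in NT_p62WT. The 4 groups did not overlap at all: HD_p62KO was highest, then HD_p62WT, NT_p62WT and NT_p62KO. The HD effect was 0.98 ± 0.08 without p62 (limma adjusted p = 3.74e-05), a 1.98-fold difference, and 0.58 ± 0.08 with normal p62 (adjusted p = 0.00168), a 1.49-fold difference. The difference between these effects, 0.40 ± 0.11, had an unadjusted p of 0.00295 but did not pass over all genes (limma adjusted p = 0.991).

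The delta-2 gene Pcdh10 encodes a protein whose cytoplasmic tail recruits the WAVE actin complex, and in mice it is needed for growth of striatal axons. Its log2 values were 10.75, 10.83 and 10.74 in HD_p62KO, 10.80, 10.77 and 10.80 in HD_p62WT, 10.31, 10.42 and 10.15 in NT_p62KO and 10.33, 10.49 and 10.36 in NT_p62WT. The 6 HD mice lay close together and above all NT mice. The mean HD effect was 0.44 ± 0.06 (limma adjusted p = 0.00028).

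Pcdh19, another delta-2 member, is the X-linked gene behind a human epilepsy that mainly affects heterozygous females. It had log2 values of 8.33, 8.45 and 8.44 in HD_p62KO, 8.23, 8.19 and 8.29 in HD_p62WT, 7.82, 7.72 and 7.95 in NT_p62KO and 7.81, 8.29 and 7.72 in NT_p62WT. One NT_p62WT mouse reached the HD range and the other NT mice were well below it. The mean HD effect was 0.44 ± 0.09 (limma adjusted p = 0.00347). It was called without p62 (0.57 ± 0.12, adjusted p = 0.0108) and not with normal p62 (0.30 ± 0.12, adjusted p = 0.154), and the difference between those effects, 0.27 ± 0.18, did not pass (adjusted p = 0.991). The remaining delta-2 genes did not pass: Pcdh17 differed by -0.15 ± 0.06 (adjusted p = 0.0761), Pcdh8 by 0.06 ± 0.10 (adjusted p = 0.635) and Pcdh18 by -0.02 ± 0.09 (adjusted p = 0.846). Pcdh17 acts at corticostriatal synapses in mice, and Pcdh8, also called arcadlin, is induced by neuronal activity.

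Among the delta-1 genes the directions differed. Pcdh7 was lower in HD, with log2 values of 9.46, 9.58 and 9.56 in HD_p62KO, 9.47, 9.38 and 9.49 in HD_p62WT, 9.76, 9.79 and 9.52 in NT_p62KO and 9.67, 9.67 and 9.86 in NT_p62WT. The third NT_p62KO mouse fell within the HD range and the other NT mice were above all HD mice. The mean HD effect of Pcdh7 was -0.22 ± 0.06 (limma adjusted p = 0.0158). With the mean of cortical neuron markers as a covariate, a setting chosen after seeing the data, it was -0.14 and did not pass (adjusted p = 0.145). It was not called with normal p62 (-0.29 ± 0.09, adjusted p = 0.0633) or without p62 (-0.16 ± 0.09, adjusted p = 0.197).

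Pcdh11x, on the X chromosome, was higher in HD, with log2 values of 9.55, 9.64 and 9.51 in HD_p62KO, 9.67, 9.63 and 9.65 in HD_p62WT, 9.12, 9.29 and 9.31 in NT_p62KO and 9.19, 9.48 and 9.43 in NT_p62WT. HD and NT mice did not overlap, and the mean HD effect was 0.30 ± 0.06 (limma adjusted p = 0.00314). The remaining delta-1 genes, Pcdh9 and Pcdh1, had mean HD effects of 0.04 ± 0.04 (adjusted p = 0.533) and -0.03 ± 0.04 (adjusted p = 0.56). Pcdh9 ranged by only 0.19 over the 12 mice.

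Pcdh15, a component of the tip links of inner ear hair cells, had log2 values of 8.12, 8.29 and 8.29 in HD_p62KO, 8.02, 8.07 and 8.24 in HD_p62WT, 7.92, 7.93 and 7.90 in NT_p62KO and 7.94, 8.11 and 7.73 in NT_p62WT. One NT_p62WT mouse overlapped the HD mice, and the mean HD effect was 0.25 ± 0.07 (limma adjusted p = 0.0153). Pcdh12, which is known from endothelial cells, had a mean HD effect of -0.18 ± 0.07 and did not pass (adjusted p = 0.062).

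Taken separately by p62 genotype, the HD effect called more protocadherins in mice without p62, as it did over all genes. With normal p62, 11 of 34 members were called higher and 0 lower, where 7.1% of all genes were called (3.85% higher and 3.24% lower). Without p62, 15 were called higher and 0 lower, where 21.7% of all genes were called (13.3% higher and 8.34% lower). The beta cluster, which makes up 22 of the 34 members, held 9 of the 11 and 10 of the 15. With normal p62, 9 of 22 beta genes and 2 of 12 non-clustered genes were called. Without p62 the rates were similar, at 10 of 22 and 5 of 12. The median log2 differences of the beta genes were 0.36 with normal p62 and 0.34 without p62. The non-clustered genes had medians of 0.00 with normal p62 and 0.15 without p62, and all genes -0.01 and -0.02. Groups that did not overlap, with all 3 HD mice above all 3 NT mice, were seen for 18 of 34 members with normal p62 (17.8% of all genes) and for 21 without p62 (22.3% of all genes). The reverse, all 3 HD mice below all 3 NT mice, held for 2 non-clustered members with normal p62 (2941 of the 19248 genes). Without p62 it held for 1 member, the beta gene Pcdhb8 (3308 of the 19248 genes).

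Most of the genes called were shared by both HD comparisons. These compare different mice but share the same estimate of each gene's spread from the joint fit, so their calls are not independent. The overlap over all genes was not counted. The overlap was 10 genes, 90.9% of the 11 called with normal p62 and 66.7% of the 15 called without p62: Pcdh20, Pcdh10, Pcdhb2, Pcdhb3, Pcdhb9, Pcdhb12, Pcdhb14, Pcdhb19, Pcdhb21 and Pcdhb22. Pcdhb20 was called only with normal p62 (0.43 ± 0.10, limma adjusted p = 0.0231, against an adjusted p of 0.0736 without p62). Pcdhb10 (0.50 ± 0.14, adjusted p = 0.0243), Pcdhb13 (0.45 ± 0.13, adjusted p = 0.0348), Pcdh11x (0.32 ± 0.08, adjusted p = 0.0218), Pcdh15 (0.32 ± 0.10, adjusted p = 0.0371) and Pcdh19 were called only without p62. None of these differences between effects passed, with an adjusted p of 0.991 for each. The sign was the same in both comparisons for all 22 beta genes and for 8 of the 12 non-clustered genes. As a description across the 34 genes, which share the same mice and arrays, the effects correlated with a Spearman rho of 0.80 and a Pearson r of 0.85. Sign agreement and correlation were not computed over all genes either. Neither they nor the overlap are therefore shown to be particular to the protocadherins.

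**Figure D3:**
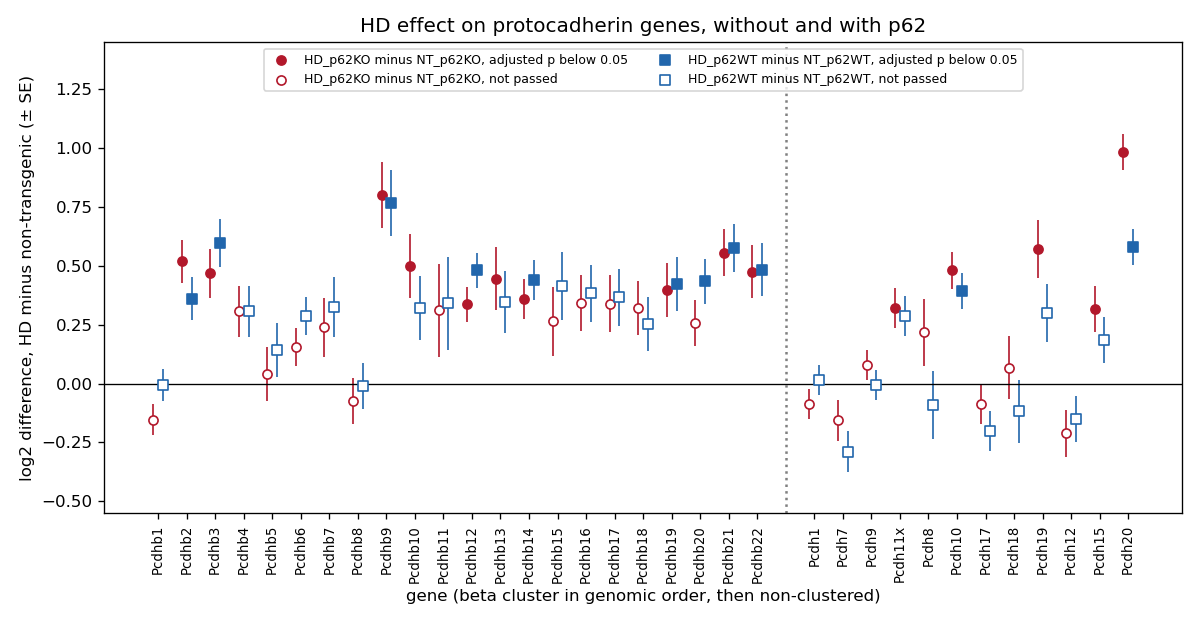
Log2 difference of HD minus non-transgenic mice (± SE) for each protocadherin gene, without p62 and with normal p62, in genomic order for the beta cluster and then the non-clustered genes. Filled symbols passed the adjusted p of 0.05: 15 genes without p62 and 11 with normal p62, all above 0.

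Single mice moved these separate counts, and the share of all genes called in each of these fits is not given here. With normal p62, the 11 calls became 7 without the first HD_p62WT mouse and 6 without the third HD_p62WT or the third NT_p62WT mouse, and the 9 beta calls became 5 without the third HD_p62WT, the second NT_p62WT or the third NT_p62WT mouse. The 5 genes called with any 1 mouse left out were Pcdh20, Pcdhb3, Pcdhb9, Pcdhb12 and Pcdhb21. Without p62, the 15 calls became 8 without the second HD_p62KO mouse, and the 10 beta calls became 5 without that mouse and 6 without the third NT_p62KO mouse. The 8 genes called with any 1 mouse left out were Pcdh10, Pcdh19, Pcdh20, Pcdhb2, Pcdhb3, Pcdhb9, Pcdhb12 and Pcdhb21. For the mean HD effect, 22 of the 24 called members stayed called whichever mouse was left out, the exceptions being Pcdhb7 and Pcdhb15.

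Loss of p62 itself called no protocadherin. In the HD mice the HD_p62KO minus HD_p62WT differences ran from -0.13 to 0.26, with 0 of 34 called by limma and 0 at an unadjusted p below 0.05, where 0.0052% of all genes were called (1 gene) and 2.88% had an unadjusted p below 0.05. In the non-transgenic mice the NT_p62KO minus NT_p62WT differences ran from -0.27 to 0.20, with 0 of 34 called (0.0052% of all genes, 1 gene). There, 2 members had an unadjusted limma p below 0.05, where 3.32% of all genes did. Pcdh20 was lower in every NT_p62KO mouse than in any NT_p62WT mouse (-0.27 ± 0.08, with an unadjusted limma p of 0.00481), and Pcdhb12 differed by 0.20 ± 0.07 (unadjusted limma p of 0.0181). The difference of the HD effects was called for 0 of 34 members and for 0% of all genes, and 1 member, Pcdh20, had an unadjusted p below 0.05 (3.45% of all genes did). Choroid plexus markers (7 genes) also differed between the non-transgenic groups, with gene-centred means of 0.32 to 0.55 in NT_p62KO and -0.65 to -0.33 in NT_p62WT, and their part in these 2 genes was not tested.

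The beta cluster as a whole separated HD from NT mice in every animal. The mean of the 22 genes, each centred on its average over the 12 mice, was 0.17 ± 0.04 in HD_p62KO, 0.18 ± 0.08 in HD_p62WT, -0.16 ± 0.14 in NT_p62KO and -0.19 ± 0.12 in NT_p62WT (SD, n = 3). The lowest HD mouse was at 0.08 and the highest NT mouse at -0.05. The same mean over the 12 non-clustered genes was 0.10 ± 0.03 in HD_p62KO, 0.04 ± 0.02 in HD_p62WT, -0.10 ± 0.01 in NT_p62KO and -0.04 ± 0.10 in NT_p62WT. The HD effect on the beta mean exceeded that on the non-clustered mean by 0.29 with normal p62 and by 0.12 without p62. With normal p62 it became 0.19 without the second NT_p62WT mouse, and without p62 it became 0.04 without the third NT_p62KO mouse and 0.20 after quantile normalization. Beta minus non-clustered was 0.07 ± 0.02 in HD_p62KO, 0.14 ± 0.09 in HD_p62WT, -0.05 ± 0.15 in NT_p62KO and -0.15 ± 0.19 in NT_p62WT. The spread in NT_p62KO was larger than the difference of 0.12 without p62.

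**Figure D4:**
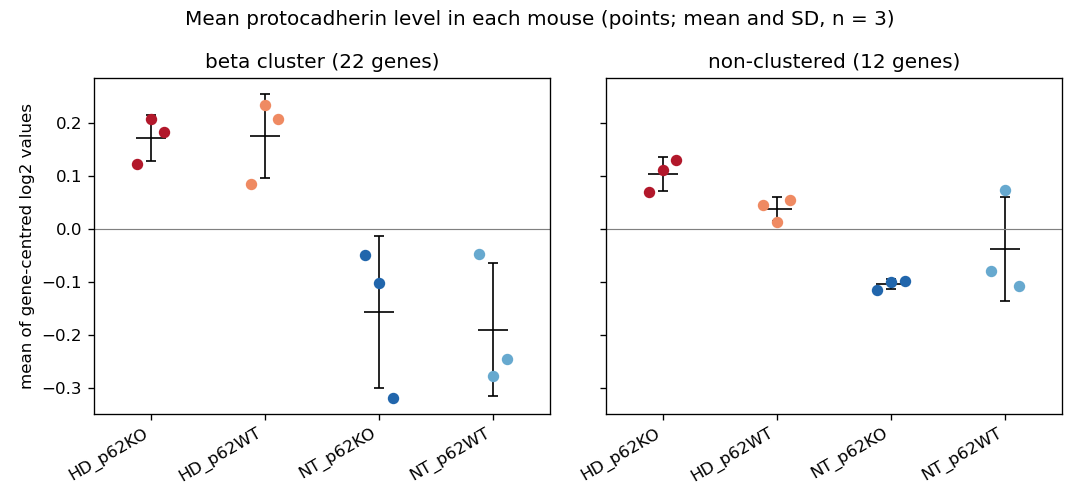
Mean of gene-centred log2 values in each mouse (points) with group mean and SD (n = 3), for the beta cluster and the non-clustered genes. All 6 HD mice lie above all 6 NT mice for the beta cluster, and 1 NT_p62WT mouse overlaps the HD mice for the non-clustered genes.

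Array spread moved with part of this pattern. The standard deviation over genes ran from 1.66 to 1.73 in HD_p62KO, 1.64 to 1.71 in HD_p62WT, 1.58 to 1.67 in NT_p62KO and 1.65 to 1.66 in NT_p62WT. The third NT_p62KO mouse had the smallest value (1.58) and the lowest beta mean (-0.32). The second HD_p62WT mouse had the next smallest (1.64) and the highest beta mean of all mice (0.23), and the first NT_p62WT mouse, next after it in spread, had the highest beta mean among NT mice (-0.05). With the array standard deviation as a covariate, the mean HD effect still called 15 members and 10 beta genes, and no longer called Pcdh15, Pcdhb4, Pcdhb7, Pcdhb10, Pcdhb13, Pcdhb15, Pcdhb16, Pcdhb17 and Pcdhb18. In the same fit, the HD effect without p62 called 2 members (Pcdh10 and Pcdh20) and 0 beta genes. Without the 3 arrays of smallest spread, the HD effect without p62 called 9 members, 5 of them in the beta cluster. How many of all genes were called in these fits is not given here.

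**Figure D5:**
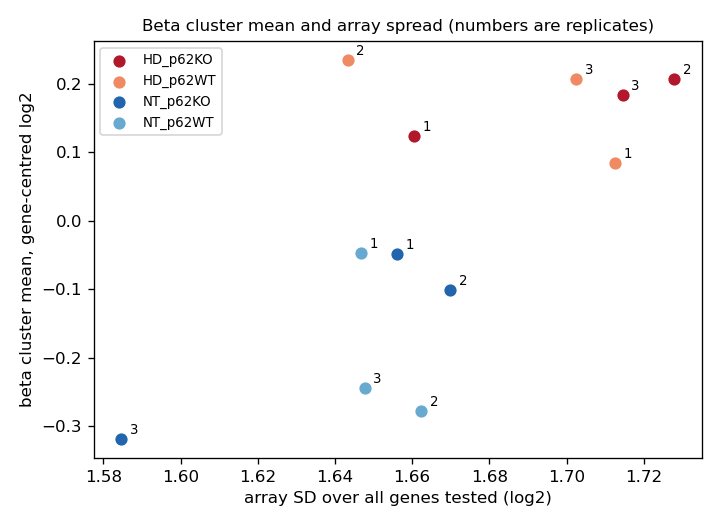
Mean gene-centred log2 value of the beta cluster (vertical) against the standard deviation of the array over all genes tested (horizontal), one point per mouse with its replicate number. The third NT_p62KO mouse stands apart at 1.58 with the lowest beta mean, and the second HD_p62WT mouse, next in spread, has the highest.

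Cell type markers moved with HD as well. Of 11 measured striatal projection neuron markers (14 listed), 10 were called lower in the mean HD effect and 1 higher (Tac1, named after its value was seen), and their gene-centred mean ran from -0.42 to -0.34 in HD_p62KO, -0.26 to -0.23 in HD_p62WT, 0.26 to 0.45 in NT_p62KO and 0.17 to 0.38 in NT_p62WT. Ppp1r1b (DARPP-32), which defines these neurons and marks the tissue as striatum, had log2 values of 10.70, 10.69 and 10.44 in HD_p62KO, 10.82, 10.81 and 10.71 in HD_p62WT, 11.33, 11.48 and 11.19 in NT_p62KO and 11.47, 11.23 and 11.32 in NT_p62WT. Interneuron markers were called lower for 6 of 7. Cortical excitatory markers, which would enter with overlying tissue, were called lower for 2 of 7 measured (8 listed; Nptx1 and Rspo1, named after their values were seen), with gene-centred means of -0.74 to 0.21 in HD_p62KO, -0.45 to -0.13 in HD_p62WT, -0.34 to 0.66 in NT_p62KO and 0.06 to 0.66 in NT_p62WT. Glial and vascular markers gave smaller counts, with 2 of 7 microglial markers called higher and 3 of 8 astrocyte markers lower and 1 higher. Called lower were 3 of 7 mature oligodendrocyte markers and 2 of 8 endothelial and mural markers. Of 6 oligodendrocyte precursor markers, 1 was called higher and 1 lower. Over all genes, 19.9% were called higher and 15% lower in the mean HD effect. Whether the counts of these short lists differ from those shares was not tested. The part of these markers in the protocadherin differences was not tested beyond 1 fit, with the cortical marker mean as a covariate, a setting chosen after seeing the data. There, the HD effect with normal p62 called 6 members and 4 beta genes. The share of all genes called in that fit is not given here. In the mean HD effect, that fit no longer called Pcdh7, Pcdh15 (adjusted p = 0.109), Pcdhb6 (adjusted p = 0.052), Pcdhb7 (adjusted p = 0.0916) and Pcdhb10 (adjusted p = 0.0515). In bulk tissue, fewer cells of a type and less RNA per cell cannot be told apart.

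The alpha cluster was read by 1 probe set that carries 14 alpha symbols and so lies outside the 34 members. Its log2 values were 8.50, 8.66 and 8.50 in HD_p62KO, 8.57, 8.56 and 8.52 in HD_p62WT, 8.47, 8.33 and 7.93 in NT_p62KO and 8.39, 8.29 and 8.39 in NT_p62WT. All HD mice were above all NT mice, the third NT_p62KO mouse again being the lowest. The mean HD effect was 0.25 ± 0.08 (limma adjusted p = 0.0307 over probe sets). It did not pass separately, at 0.19 ± 0.11 with normal p62 (adjusted p = 0.313) and 0.31 ± 0.11 without p62 (adjusted p = 0.0693). The gamma cluster was not analysed here.

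Genes for chromatin factors known from clustered protocadherin promoters were called higher in HD in 14 of 24 measured cases and lower in 0, in the mean HD effect. Their median log2 difference was 0.21, and 19.9% of all genes were called higher and 15% lower. The gene-centred mean of this list was lowest in the third NT_p62KO mouse (-0.19), whose array had the smallest spread. How the calls of this list depend on array spread was not tested. Smc3, a core subunit of the cohesin ring, differed by 0.45 ± 0.06 (limma adjusted p = 0.000412) and Nipbl, which loads cohesin, by 0.38 ± 0.08 (adjusted p = 0.00369). Trim28, a corepressor that recruits the histone methyltransferase Setdb1, differed by 0.38 ± 0.07 (adjusted p = 0.00177), and Wiz, a zinc finger partner of the G9a and GLP methyltransferases, by 0.37 ± 0.06 (adjusted p = 0.00133). The heterochromatin protein gene Cbx5 did not pass (0.08 ± 0.04, adjusted p = 0.139). Ctcf, the insulator factor that binds these promoters, also did not pass (0.01 ± 0.04, adjusted p = 0.914), and was singled out after its value was seen. Of the 24 genes, 3 were called higher with normal p62 and 11 without p62, while the share of all genes called higher was 3.85% with normal p62 and 13.3% without p62. Among the 11, the neuronal gene repressor Rest differed by 0.53 ± 0.13 without p62 (adjusted p = 0.0145) and Wapl, which releases cohesin, by 0.54 ± 0.14 (adjusted p = 0.0206).

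Genes listed as signalling partners of protocadherins did not share the direction of the beta cluster. Of 19 measured, 2 were called higher and 4 lower in the mean HD effect, against 19.9% higher and 15% lower over all genes. Their median was -0.10, against -0.02 over all genes. Marcks, an actin and membrane substrate of protein kinase C, was higher (0.35 ± 0.06, limma adjusted p = 0.00106). Abi1 and Cyfip2, both subunits of the WAVE complex that delta-2 tails bind, were lower by -0.27 ± 0.05 (adjusted p = 0.00195) and -0.25 ± 0.05 (adjusted p = 0.00317). Reln, the secreted guidance protein reelin, was lower (-0.19 ± 0.06, adjusted p = 0.0256), and Brk1, a further WAVE subunit, did not pass (-0.12 ± 0.05, adjusted p = 0.0719).

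Other cadherin superfamily genes moved in both directions. Among 25 classical cadherins and catenins, 7 were called higher and 6 lower in the mean HD effect, with a median of -0.04. Over all genes, 19.9% were called higher and 15% lower in that comparison. Cdh19 was higher by 0.59 ± 0.09 (limma adjusted p = 0.000759) and Cdh18 by 0.53 ± 0.09 (adjusted p = 0.00118). Ctnnd1 (p120 catenin) was higher by 0.35 ± 0.07 (adjusted p = 0.00412), Jup (plakoglobin) was lower (-0.25 ± 0.06, adjusted p = 0.00672), and Cdh8 did not pass (-0.03 ± 0.05, adjusted p = 0.672). Among 18 measured large and other cadherin superfamily genes, 2 were called higher and 5 lower, against the all-gene shares above, with a median of -0.10. The giant cadherin Fat1 was higher (0.44 ± 0.05, adjusted p = 0.000259), while Celsr2, a planar polarity receptor (-0.20 ± 0.04, adjusted p = 0.00453), the synaptic calsyntenin Clstn2 (-0.36 ± 0.08, adjusted p = 0.00586) and Cdhr5 (-0.27 ± 0.08, adjusted p = 0.0195) were lower. Clstn1 did not pass (0.08 ± 0.06, adjusted p = 0.298).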

How the data were processed

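Per the labels' protocols, 100 ng of RNA from each striatum went onto an Affymetrix whole-transcript array. The authors' deposited log2 value of each probe set comes from RMA, according to the submitters' processing notes. The RMA version, its settings and the genome build were not given in the sources used here. A change common to nearly all genes would be lost in RMA's between-array normalization.

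Of 24055 probe sets, 19942 carried 1 gene symbol, 1225 several and 2888 none in the platform table. The brightest single-symbol probe set per gene gave 19248 genes, and all 34 members matched the RefSeq gene table. Groups came from the sample titles. The 4 groups entered 1 limma fit (3.58.1, R 4.3.3; lmFit and eBayes, 8 residual degrees of freedom) with no covariates, and p-values were adjusted over all genes. The p-values set each group difference against the spread between these mice, with each gene's variance moderated across genes by eBayes. The fit was tested on simulated data. The members and gene lists were chosen with earlier results of these data known. The rule for named members took those called in any comparison, plus the brightest and the smallest p per subgroup. The members outside it were named as well, to account for all 34. From each related list, up to 4 called genes of smallest p and the brightest gene not called were named. Promoter windows are RefSeq GRCm38.p6.

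Alternatives were quantile normalization, equal medians, a brightness filter, probe set averaging, trended robust eBayes, array weights, array standard deviation or marker means as covariates, other sample sets, each mouse left out and a replicate block.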

Additional observations from a re-analysis of the deposited data

How the results depend on the processing

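No called member changed direction in any alternative (50 gene results, 1171 recomputations, 0 reversed), and 20 of the 50 stayed called throughout. The HD effect with normal p62, with 11 members and 9 beta genes called, called 18 members with array weights, and 6 members and 4 beta genes with the cortical marker mean as a covariate. That covariate and the choroid plexus marker mean were chosen after seeing the data. With the choroid plexus marker mean, 67 of 72 HD effect results of the called members, passed or not, kept their status. Of the rest, 4 lost their call and 1 gained a call. The HD effect without p62 (15 members, 10 beta genes) called 2 members and 0 beta genes with the array standard deviation as a covariate, and 9 members and 5 beta genes without the 3 arrays of smallest spread. The mean HD effect (24 members, 18 beta genes) called 15 members and 10 beta genes with the array standard deviation as a covariate. For the counts of this section, the shares of all genes called in the same fits are not given. A change particular to the protocadherins is therefore not shown, and the cause of these changes was not tested.

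With 1 mouse left out, the HD effect with normal p62 called 6 to 16 members and 5 to 13 beta genes, the HD effect without p62 called 8 to 18 members and 5 to 13 beta genes, and the mean HD effect called 22 to 25 members and 16 to 19 beta genes. The excess of the beta over the non-clustered HD effect ran from 0.19 to 0.38 with normal p62 and from 0.04 to 0.18 without p62. The p62 effects and the difference of the HD effects called 0 members in every alternative.

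With the replicate block, the members called were 9 with normal p62, 14 without p62 and 24 in the mean HD effect, and the beta genes 7, 10 and 18. Replicate numbers did not pair the mice: residuals of same-numbered mice correlated between -0.34 and 0.21, and 2 of 12 arrays correlated best with their own number. The number of arrays, 3 per group, limits the precision, and signal over background was not assessed here.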
